A study of Mus musculus with 26 samples.

Results

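The 8 arrays described here compare osteosarcoma cells grown as cell lines with osteosarcoma grown as secondary tumours in the mouse. They were chosen by their labels. The 4 arrays whose source is given as an osteosarcoma cell line (numbers 176, 179, 182 and 213) were set against the 4 arrays whose titles begin with OPflR (numbers 29, 64, 66 and 94). They are 8 of 26 arrays in all. The other 18 are 15 primary osteosarcomas and 3 cultures of wild-type osteoblasts differentiated in vitro, and they enter only as points of reference and to estimate the spread. Total RNA was labelled with biotin and hybridised to one-colour arrays, 1 sample to an array. Secondary tumours 29, 64 and 94 are labelled as secondary transplants, whereas number 66 is labelled as tumour tissue that came from an osteosarcoma cell line and carries "cell line" in its title. Beyond these sources and titles, the labels describe growth only as a mouse model. They give no genotype, strain, age or sex for either group, no culture medium or passage for the lines, and no host or site for the transplants. The name OPflR is not explained in them. Whether samples of a group came from separate animals is stated only by their differing numbers. The p-values below rest on the spread between samples within groups, pooled over all 26 arrays and not taken from the 8 compared arrays alone. For a gene that varies among the lines but hardly among the primary tumours, the SE can be smaller than the 8 arrays alone would give.

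Osteosarcoma is a bone tumour whose malignant cells lay down immature bone matrix. A tumour growing in an animal is a mixture of malignant cells with blood vessels, macrophages and other host cells, and it is fed by its vessels. A cell line is grown on plastic in serum-containing medium, where host cells are usually lost and the remaining cells spread, adhere and divide. RNA from tumour tissue therefore reports all its cells at once. In such bulk RNA, fewer cells of a type and less RNA per cell cannot be told apart.

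Levels are given as log2 of the deposited array intensity. Intensities below 12.463, the 20th percentile of all values, were set to that floor, which is 3.64 on the log2 scale and is a bound rather than a level. Values for single arrays are listed in the order 176, 179, 182 and 213 for the lines and 29, 64, 66 and 94 for the secondary tumours. Line arrays had median intensities of 44.4 to 48.2 and secondary tumour arrays of 54.9 to 58.1, with no overlap (exact two-sided permutation test of the means, p = 0.0286, the smallest that 4 against 4 can give; adjusted p = 0.0429 over 6 quality measures). The share of probe sets at the floor was 20.2% to 21.6% against 19% to 19.7%. Gapdh 5′ to 3′ ratios, which fall with broken RNA, were 1.04 to 1.08 and 0.839 to 1.08 (exact permutation p = 0.143, adjusted p = 0.172). The 18S ribosomal RNA 3′ control had intensities from 106 to 329 on the line arrays, above all 4 secondary tumours at 22.8 to 27.9 (exact permutation p = 0.0286, adjusted p = 0.0429). Primaries had 30 to 81.4 in the high control set and 18.6 to 45.4 in the low one, and the osteoblast cultures 104 to 129. The part of this difference in the results below was not tested. Bacterial transcripts added before hybridisation (bioB and bioC) divided the arrays of the study into sets. Their ratio was 0.827 to 0.955 on all 4 line arrays and 0.313 to 0.337 on all 4 secondary tumour arrays. The 3 osteoblast cultures had 0.357 to 0.387, a middle set. Comparisons of lines or tumours with these cultures therefore also cross control sets. The labels do not say what these control sets are, and between the compared groups set and growth condition cannot be told apart directly. The primary tumours fall on both sides, with 8 arrays in the high set and 7 in the low set, and the primaries of these sets differed from each other at 2.55% of genes by the call rule given below. A second fit with the control set as a term, which rests on those primaries, is given below as the set-adjusted value, with its own adjusted p. For the leading genes, each group was also set against the primary tumours of its own set. Primaries of the low set include those numbered 29, 64, 66 and 94, the numbers of the secondary tumours. Both fits treat same-numbered arrays as independent.

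Sex-linked genes gave a further check of the labels. Eif2s3y and Uty, both on the Y chromosome, were at the floor in all 4 lines. Eif2s3y was at 7.65, 5.04, 7.49 and 7.73 in the secondary tumours. Kdm5d, a further Y-linked gene, was above the floor in every line, at 5.38, 4.45, 5.34 and 4.15. The secondary tumours had Kdm5d at 5.67, 6.06, 6.61 and 6.64. Xist, which is transcribed from an inactive X chromosome, was at 8.20, 11.84, 11.07 and 11.51 in the lines and at 5.57, 12.98, 6.79 and 5.97 in the secondary tumours. Line 176 and the primary tumour of the same number did not match. That primary had Eif2s3y at 6.58, Uty at 6.29 and Xist at 5.62, and the ribosomal protein gene Rps4l at the floor, where line 176 had Rps4l at 10.36. Secondary tumour 64 had both Xist at 12.98 and Y-linked signal, whereas primary tumour 64 had Xist at 13.04 and Eif2s3y and Uty at the floor. The comparison of lines with secondary tumours does not use the shared numbers. Sex and growth condition cannot be told apart for these genes, and they are not read as results, although 3 Y-linked genes are among the calls counted below.

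Of 12886 genes measured above the filter, 1697 differed between the groups (13.2%; limma, Benjamini-Hochberg adjusted p below 0.05 and at least 2-fold). Higher in the lines were 615 genes (4.77%), and higher in the secondary tumours were 1082 genes (8.4%). Counts of called list members below stand beside these shares, and a count near them is not a result about its list. The set-adjusted fit called 355 genes higher in the lines (2.75%) and 456 higher in the secondary tumours (3.54%). It called 261 of the 615 and 382 of the 1082 in the same direction, and it turned the sign of 8. The groups did not overlap on any of the 8 arrays for 499 of the 615 genes and 971 of the 1082, against 12.7% of all genes with the lines above and 19.8% with the secondary tumours above. The split between the directions depended on the scaling. Lines took 36.2% of the calls on the deposited values, 52.6% after quantile normalization, 53% after scaling to the 75th percentile and 66.9% after scaling to the median. Those scalings moved the median difference of all genes by 0.15 to 0.30 on the log2 scale, from a value of -0.07, so differences below are best read relative to that shift.

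**Figure D1:**
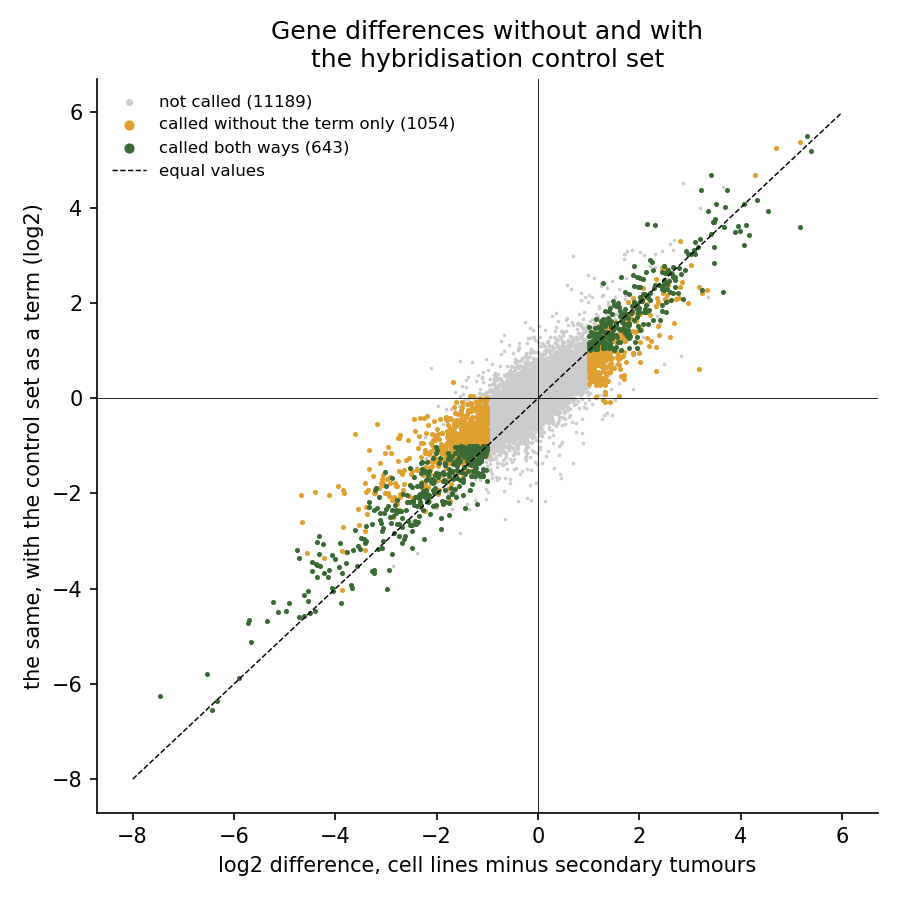
Each point is 1 of 12886 genes. The horizontal axis is the log2 difference between the mean of the 4 cell lines and the mean of the 4 secondary tumours, and the vertical axis is the same difference with the control set as a term; green marks genes called both ways, orange those called only without the term. Most points called one way stay on that side of 0, and 8 called genes change sign.

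The secondary tumours correlated more closely with one another and with most primary tumours than with the lines. Across the 12886 genes, Pearson's r between secondary tumours was 0.917 to 0.942, between lines 0.889 to 0.967, and between a line and a secondary tumour 0.803 to 0.850. A secondary tumour and a primary tumour had r of 0.838 to 0.966. A line and an osteoblast culture had r of 0.833 to 0.902, and a secondary tumour and an osteoblast culture 0.782 to 0.813. These are correlations across genes, which are not independent replicates, and they are given as a description. Each array was also placed on a scale from 0, the mean of the other lines, to 1, the mean of the other secondary tumours, using only genes called without it. Secondary tumours 29, 64, 66 and 94 had median positions of 0.89, 0.91, 0.93 and 0.93. Lines 179, 182 and 213 were at 0.00, 0.05 and 0.02. Line 176 was at 0.23, with 69.3% of genes nearer to the lines, against 91.8% to 96.0% for the other lines.

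**Figure D2:**
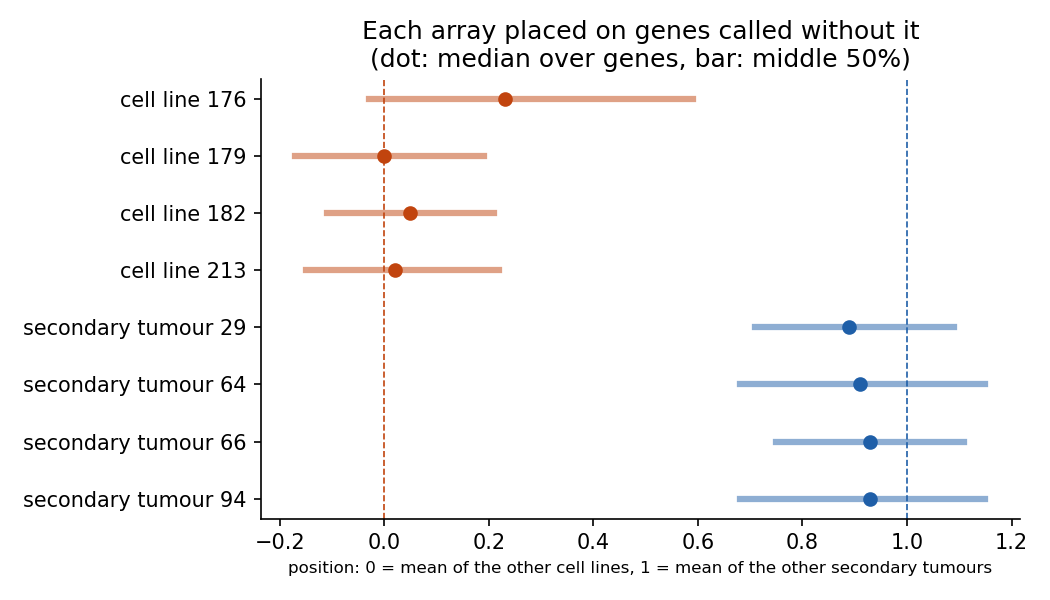
Position of each array (horizontal axis, no unit) between the mean of the other lines at 0 and the mean of the other secondary tumours at 1; dots are medians over the genes called without that array and bars the middle 50% of genes. Line 176 at 0.23 lies farther from 0 than the other lines, and tumour 66, which the labels derive from a cell line, lies at 0.93 with the transplants. Positions are not set-adjusted, and all lines are in the high control set and all secondary tumours in the low one.

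Macrophage genes divided the groups. All 15 measured markers of macrophages were higher in the secondary tumours, by a median of 4.41 on the log2 scale, where the median of all genes was 0.07 in that direction. In the set-adjusted fit 14 of the 15 stayed called, the exception being Cd14, the lipopolysaccharide co-receptor (adjusted p = 0.117). The call of Cd14 was also lost on leaving out any of arrays 179, 182, 213, 29 or 64 (differences 1.49 to 1.70, adjusted p 0.0682 to 0.0985). C1qa, which encodes a chain of the complement component C1q made by macrophages, was at 3.64, 3.76, 4.09 and 3.64 in the lines. In the secondary tumours it was at 10.90, 11.09, 9.59 and 9.31. No line came near any tumour, and the difference was 6.44 ± 0.426 (SE; limma adjusted p = 4.64e-10). C1qc and C1qb, the partner chains, were higher by 6.34 and 5.70. Ctss, a lysosomal protease of antigen-presenting cells, was higher by 5.66, and the lysozyme gene Lyz1 by 5.90. Csf1r, the receptor for the growth factor that keeps macrophages alive, was at 7.45, 6.17, 6.58 and 6.60 in the lines and 11.00, 11.91, 10.34 and 10.14 in the tumours. Fcgr3, an antibody receptor of myeloid cells, was at the floor in all 4 lines. List means were 5.11 to 5.29 for lines, 5.31 to 5.47 for osteoblast cultures, 8.50 to 10.19 for secondary tumours and 8.47 to 10.78 for primary tumours. Among the secondary tumours, 29 and 64 had higher means (9.82 and 10.19) than 66 and 94 (8.72 and 8.50). Against primaries of their own control set, lines were lower in C1qa by 6.99 on the log2 scale (-6.99), and the secondary tumours differed from theirs by -0.45.

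Genes of MHC class II, which present peptides to helper T cells, followed the same division. Of 6 measured, 5 were higher in the secondary tumours in both fits and the median difference was 4.34. Cd74, the invariant chain of class II, was at 5.54, 5.09, 4.51 and 4.39 in the lines and at 10.54, 11.87, 8.93 and 9.61 in the tumours. The difference was 5.35 ± 0.604 (SE; limma adjusted p = 1.22e-06). H2-Aa, H2-Eb1 and H2-Ab1, which encode the class II chains, were higher by 4.98, 4.37 and 4.30. Of 4 kept probe sets for H2-Aa, 3 ran this way and 1 was 0.40 toward the lines. Tumour 64 had the highest level of all 4 genes and tumour 66 the lowest. None of 10 measured genes of MHC class I was called in either direction, and their median difference was 0.13 toward the lines. Among complement genes, the receptor C3ar1 and properdin (Cfp) were higher in the tumours by 2.48 and 1.45, and C2 was higher in the lines by 1.57. Of 22 chemokines and receptors, Ccl8 (2.25), Ccr1 (2.24) and Cx3cr1 (1.59) were higher in the tumours. Ccr1 lost its call with the control set as a term (adjusted p = 0.0585). The monocyte attractants Ccl2 and Ccl7 ran the other way, higher in the lines by 2.38 and 2.37. Neither passed with the control set as a term (adjusted p = 0.144 and 0.232).

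Endothelial markers were higher in the secondary tumours for 8 of 14 genes, in both fits, and in none were the lines higher. The median difference was 1.78. Cdh5, the cadherin of endothelial junctions, was at 3.64, 3.64, 4.70 and 3.68 in the lines and at 8.23, 9.31, 8.44 and 7.84 in the tumours. This was a difference of 4.54 ± 0.377 (SE; limma adjusted p = 1.38e-08). The second kept probe set for Cdh5 did not follow, at 0.27 toward the lines. Pecam1, an adhesion molecule of endothelium, was at the floor in 3 of the 4 lines and at 3.64, just above it, in the remaining line, 182. The tumours had it at 6.15, 7.03, 6.29 and 5.20. Kdr, the main receptor for VEGF-A, was higher by 2.20, Esam by 2.85 and Plvap by 2.38. Tumour 64 had the highest level of each of these genes. Its Acp5, the acid phosphatase of osteoclasts, was also apart at 11.67, against 6.84 to 7.97 in the other tumours.

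Markers of pericytes and of smooth muscle, which the same list held, divided into opposite directions. Higher in the secondary tumours were Rgs5 (5.14), Abcc9 (4.25), Kcnj8 (3.43), Mcam (2.01) and Cspg4 (1.36), genes known from pericytes, the cells that wrap capillaries. Higher in the lines were the contractile genes Cnn1 (4.06) and Acta2 (3.65) and the actin-nucleating Lmod1 (1.88). All 8 stayed called in the set-adjusted fit. Rgs5, a regulator of G-protein signalling, was at 5.20, 5.45, 4.99 and 5.13 in the lines and 10.65, 10.58, 10.73 and 9.36 in the tumours. Acta2, smooth muscle actin, was at 12.93, 13.13, 13.42 and 12.72 in the lines and 9.62, 9.01, 9.35 and 9.64 in the tumours. Osteoblast cultures had Acta2 at 12.80 to 13.09.

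**Figure D3:**
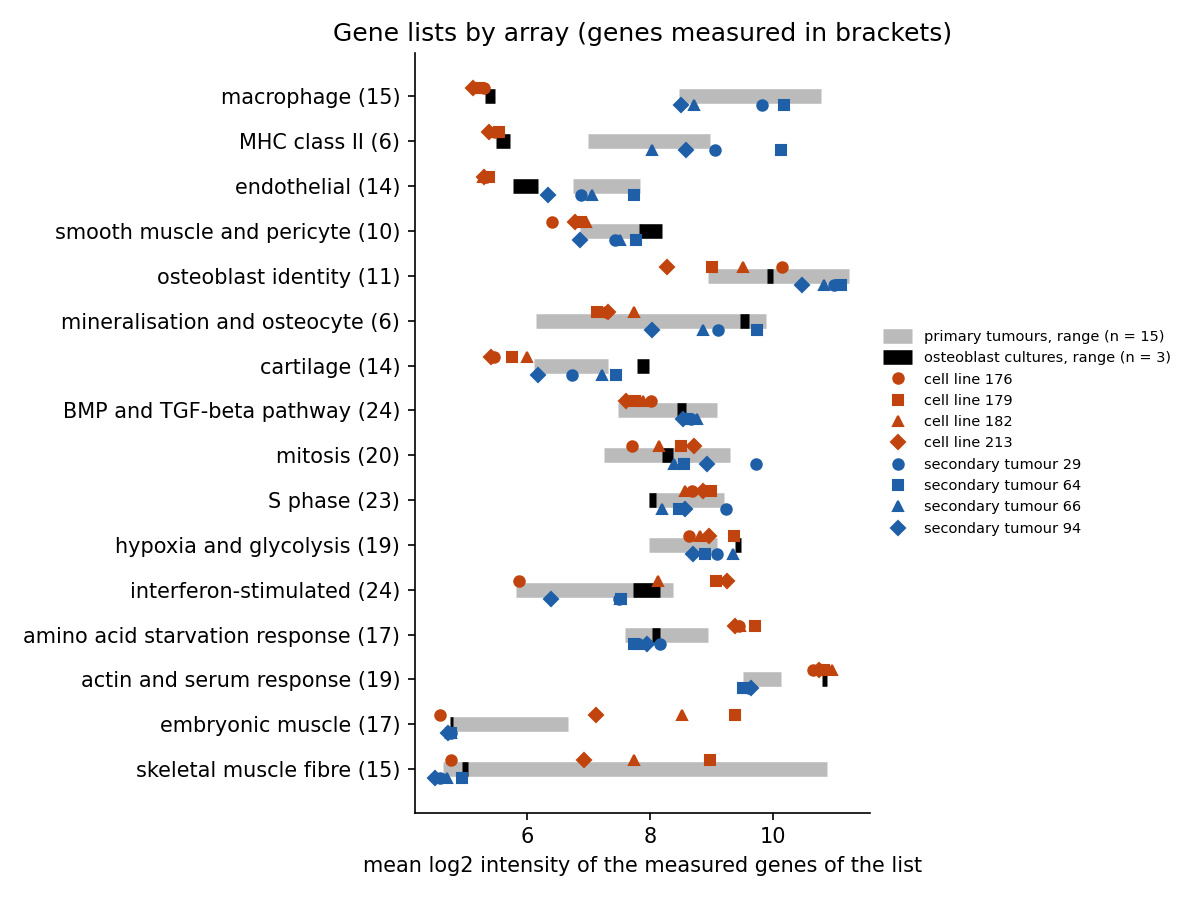
Mean log2 intensity of the measured genes of 16 lists (horizontal axis; number of genes in brackets) in each cell line (red) and each secondary tumour (blue), with the range over 15 primary tumours (grey) and 3 osteoblast cultures (black). Macrophage means are 5.11 to 5.29 in the cell lines, against 8.50 to 10.19 in the secondary tumours; the embryonic muscle means of lines 179, 182 and 213 lie apart from line 176.

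Markers of other cell types gave few calls. Of 3 measured T and NK cell markers and 2 of B and plasma cells none was called, and 9 further T and NK markers did not pass the filter. Ctsk, the collagen-degrading cathepsin of osteoclasts that osteoblast cultures here also expressed at 10.45 to 10.55, was higher in the tumours by 1.71 and was the single call among 8 osteoclast markers. The red cell anion exchanger Slc4a1, 1 of 2 erythroid markers, was higher in the lines by 1.39 in both fits. The neutrophil enzyme Mpo was higher in the tumours by 1.44, but not in the set-adjusted fit (adjusted p = 0.0769). No Schwann cell, mast cell or keratinocyte marker was called. Pparg, the regulator of fat cell differentiation, was higher in the lines. It was at 7.46, 4.63, 5.82 and 7.38 there, at 3.64, 3.85, 3.64 and 3.64 in the tumours, and at the floor in every primary tumour. Its difference was 2.63 ± 0.342 (SE; limma adjusted p = 9.51e-06), and the osteoblast cultures had 8.70 to 8.97. It was the single call among 8 adipocyte markers, whose median was 0.88 higher in the tumours.

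Mycn, a transcription factor of the Myc family that drives growth in several embryonic tumours, was at the floor in all 4 lines and in all 3 osteoblast cultures. The secondary tumours had it at 9.20, 7.81, 6.87 and 6.90, and the 15 primary tumours at 4.82 to 8.32. The tumours' mean on the log2 scale was thus at least 16.6-fold above the lines (log2 difference 4.05 ± 0.614 SE, limma adjusted p = 5.32e-05, set-adjusted p = 0.00185). A second probe set for Mycn gave 0.94 in the same direction and was not called. Myc itself was at 8.32, 7.66, 8.32 and 8.40 in the lines and 7.68, 8.49, 7.94 and 7.50 in the tumours, and the groups overlapped (adjusted p = 0.397).

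Calls among genes of cell division are set beside the share of all genes, 8.4% higher in the tumours and 4.77% higher in the lines. The counts are not read as a result about the lists. Of 20 measured mitosis genes, Cenpf and Nusap1 were higher in the secondary tumours, by 1.65 and 1.00, and neither passed the set-adjusted fit (adjusted p = 0.175 and 0.111). Nusap1 was not called either without 176, 182 or 29 (0.71 to 0.97, adjusted p 0.0657 to 0.134). The median was 0.53 higher in the tumours. Mki67, a marker of cycling cells, was at 7.65, 9.05, 8.60 and 8.82 in the lines and 10.08, 9.59, 9.17 and 9.24 in the tumours, a difference of 0.99 that fell short of 2-fold. Among 23 S-phase genes only Ccne1, cyclin E1, was called, higher in the tumours by 1.15, and not with the control set as a term, where its difference of 0.99 fell short of 2-fold. Without line 213 it was 0.80. Its second probe set was 0.56 higher in the lines, and the call was also lost with the mean of both (adjusted p = 0.322) and after scaling to the 75th percentile or the median (line minus tumour -0.99 and -0.85). The brakes and accelerators of the Rb pathway gave 3 calls of 12. Ccnd2, cyclin D2, was at 10.92, 11.23, 11.99 and 11.58 in the lines and 6.62, 7.78, 6.90 and 6.30 in the tumours. Its difference of 4.53 ± 0.846 (SE; limma adjusted p = 0.000403) was in the same direction and called on all 7 of its probe sets. Osteoblast cultures had Ccnd2 at 12.13 to 12.25. Cdkn2b, an inhibitor of cyclin D kinases, was higher in the lines by 2.02, and Cdkn2c, a related inhibitor, was higher in the tumours by 1.41. Cdkn2c lost its call in the set-adjusted fit (adjusted p = 0.222). Cdkn2a, the locus of p16 and p19ARF, was at 10.15, 9.99, 10.38 and 9.80 in the lines and 10.36, 9.24, 9.80 and 9.82 in the tumours and was not called (difference 0.28, adjusted p = 0.692). The set-adjusted difference was 1.73 (adjusted p = 0.00179), and the lines stood 1.59 above primaries of their own set. Rb1 was not called either (adjusted p = 0.432). Among 18 targets of p53, Gadd45a (2.14), Fas (1.35) and Tigar (1.22) were higher in the lines and Trp53inp1 (2.34) and Sesn1 (1.11) in the tumours; of these Gadd45a alone passed the set-adjusted fit. Fas lost its call without line 213 (0.67) or tumour 66 (1.06), and Sesn1 without tumour 64 (0.88). Tigar had a second probe set at -0.09, and the mean of both was 0.56, under 2-fold. Cdkn1a, the p53 target p21, was at 8.37, 11.36, 10.52 and 9.61 in the lines and 10.08, 9.16, 8.39 and 8.02 in the tumours (adjusted p = 0.182).

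The Wnt pathway, by which secreted Wnt proteins stabilise beta-catenin and which promotes bone formation, gave 11 calls among 26 measured genes. The largest difference of the whole comparison was in Wif1, a secreted protein that binds and blocks Wnts. It was at 5.14, 3.64, 6.52 and 3.64 in the lines and 12.37, 11.63, 11.96 and 12.82 in the tumours. The gap was 7.46 ± 0.826 (SE; limma adjusted p = 9.76e-07; set-adjusted difference 6.26, adjusted p = 0.000262). Primary tumours had Wif1 at 7.38 to 12.86 and osteoblast cultures at 4.87 to 5.49. Other genes higher in the tumours were the R-spondin receptor Lgr6 (3.11), the ligand Wnt5b (2.78), the beta-catenin partner Lef1 (2.76), Nkd2 (2.07), the receptor Fzd1 (1.45) and the feedback target Axin2 (1.23). Only Wif1 and Axin2 of these 7 stayed called with the control set as a term. Higher in the lines were the receptors Fzd8 (2.70) and Fzd2 (1.04) and the secreted inhibitors Sfrp1 and Sfrp2 (2.15 each). Fzd8 and Sfrp1 stayed called. Axin2 fell short of 2-fold after median scaling (-0.93, line minus tumour). Several of the other calls lay near the threshold. Nkd2 was not called on leaving out any of 6 arrays, 179, 182, 213, 29, 66 or 94 (1.74 to 2.05, adjusted p 0.0519 to 0.0890). Fzd1 lost its call without 179, 182, 213, 29 or 94 (1.22 to 1.47), and Sfrp1 without 179, 213, 29, 64 or 66 (1.34 to 2.15). For Sfrp2 this held of 182, 213, 29, 66 and 94 (1.76 to 2.12), whereas among single arrays left out Fzd2 lost its call only without tumour 94 (0.82). Fzd8 was at 8.55, 9.41, 8.72 and 8.98 in the lines and 5.53, 6.44, 7.04 and 5.85 in the tumours. Thus inhibitors and receptors of the pathway stood on both sides.

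BMP and TGF-beta signals, which induce bone and cartilage, were called in 11 of 24 genes, 9 of them higher in the tumours. Bmp2, a bone-inducing ligand, was at 7.54, 5.42, 5.62 and 3.81 in the lines and 9.48, 8.49, 9.13 and 9.75 in the tumours. It differed by 3.61 ± 0.571 (SE; limma adjusted p = 8.19e-05) and stayed called with the set term. So did Bambi, a pseudoreceptor that damps the pathway (3.11), and the ligand Tgfb1 (2.23). Inhbb (2.73), Gdf10 (2.56), Smad6 (1.98), Bmp7 (1.66), Smad7 (1.33) and Bmp6 (1.00) were higher in the tumours but lost their calls in that fit. Smad6, an inhibitory Smad, was at 8.73, 8.71 and 9.03 in tumours 29, 64 and 94 and at 13.80 in tumour 66, where the primary of the same number had it at 8.93. Smad6 and Acp5 above were singled out after their values were seen. Without tumour 66, the Smad6 difference was 0.74. Gdf10 lost its call on leaving out any of 176, 182, 213, 64 or 94 (2.11 to 2.48, adjusted p 0.0535 to 0.0843), Smad6 also without 179 or 182 (1.85 and 1.91), and Bmp6 without 179 (0.91) or 66 (0.66). The antagonists Fst (2.29) and Grem1 (1.64) were higher in the lines, and only Fst stayed called. The median of the 24 genes was 0.44 toward the tumours, and -0.01 in that direction with the control set as a term.

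Bone genes were higher in the secondary tumours or did not differ. Of 11 osteoblast identity genes 5 were called, none higher in the lines. Alpl, the alkaline phosphatase that frees phosphate for mineral, was at 11.16, 8.91, 10.40 and 7.09 in the lines and 12.65, 12.42, 12.29 and 12.04 in the tumours. Sp7, a transcription factor needed for osteoblasts, was at 10.52, 6.97, 8.42 and 6.21 in the lines and 10.73, 11.05, 10.36 and 10.21 in the tumours. Line 176 lay inside the range of the tumours for Sp7. The differences in Alpl (2.96 ± 0.848 SE, adjusted p = 0.0107) and Sp7 (2.55 ± 0.704 SE, adjusted p = 0.00841) came from limma, and neither passed the set-adjusted fit (adjusted p = 0.214 and 0.127). Without line 213 the Alpl difference was 2.19 (adjusted p = 0.0582). Pth1r, the parathyroid hormone receptor (2.15), and the homeobox genes Dlx3 (2.58) and Dlx5 (1.57) stayed called. Dlx3 was at the floor in all 4 lines. Ibsp, bone sialoprotein, ranged from the floor in line 213 to 10.12 in line 176 and from 8.39 to 12.34 in the tumours, and was not called (adjusted p = 0.141). Of the mineralisation genes, Dmp1, an osteocyte matrix protein (4.12), and Ifitm5, a membrane protein of bone-forming cells (2.94), were higher in the tumours. Ifitm5 alone stayed called. Dmp1 was at 9.12, 10.64 and 8.89 in tumours 29, 64 and 66 and at 5.20 in tumour 94. Without tumour 64 its difference was 3.40 (adjusted p = 0.0620).

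Cartilage matrix genes gave 4 calls of 14, all higher in the secondary tumours and all kept in the set-adjusted fit. Hapln1, the link protein of aggrecan, was at 4.03, 4.54, 4.45 and 3.92 in the lines and 8.33, 8.49, 9.28 and 7.75 in the tumours. Its difference was 4.23 ± 0.754 (SE; limma adjusted p = 0.000261). Acan, aggrecan itself, was higher by 3.42, Col11a1 by 2.30 and Col11a2 by 3.24. Col11a2 in tumour 94, at 5.55, lay within the lines' 5.33 to 5.78. The fibrillar collagen Col1a1 was high everywhere. It was at 13.26 to 13.73 in the cell lines, against 13.71 to 13.96 in the tumours, and the difference of 0.36 was under 2-fold (limma adjusted p = 0.0102). Among 14 interstitial collagens, Col16a1 (2.18) and Col12a1 (1.71) were higher in the tumours and neither passed the set-adjusted fit. Col12a1 lost its call without 179, 213, 66 or 94 (1.28 to 1.67, adjusted p 0.0662 to 0.130).

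Small proteoglycans and matricellular proteins differed strongly in both directions. Lum, lumican, which binds collagen fibrils, was at 6.63, 7.23, 8.42 and 7.43 in the lines and 13.02, 12.64, 13.36 and 13.57 in the tumours. Osteoblast cultures had it at 12.63 to 12.79. The difference of 5.72 ± 0.741 (SE; limma adjusted p = 8.90e-06) held in the set-adjusted fit at 4.72 (adjusted p = 0.00138). Sparcl1 (4.47) and Dcn, decorin (2.78), were higher in the tumours as well, and Fbln1 (1.73) lost its call with the term. Mfap5, a microfibril protein, was higher in the lines by 3.45, at 7.40, 11.18, 10.74 and 11.35 against 6.26, 7.21, 6.48 and 6.91, with line 176 nearly at the level of the tumours. Thbs1, thrombospondin 1 (1.87), and Fbln2 (1.76) were higher in the lines in the fit without the term only. Fbln1 lost its call without 176 or 94 (1.35 and 1.51), and Fbln2 without tumour 64 (1.32). Of the basement membrane genes, Nid1, nidogen 1, was higher in the lines by 2.51 in both fits. Hspg2, perlecan, was higher in the tumours by 1.60 (set-adjusted p = 0.0534). The proteases Adamts4 (2.05) and Mmp2 (1.51) were higher in the tumours and lost their calls in that fit. The macrophage, endothelial and pericyte markers described above were higher on the same 4 arrays, and their part in the matrix, bone and signalling results was not tested.

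Receptors and growth factors of other pathways were divided. Igf1r, the receptor for insulin-like growth factors, was at 10.24, 9.0, 9.47 and 9.27 in the lines and 12.92, 11.57, 12.40 and 11.24 in the tumours. The difference of 2.54 ± 0.768 (SE; limma adjusted p = 0.0148) was in the same direction on all 5 probe sets and called on 4, but the set-adjusted difference was 1.26 (adjusted p = 0.365). Igfbp2, which binds the same ligands, was higher in the lines by 2.60 and also lost its call (adjusted p = 0.451), as it did without any of 179, 182, 213, 29, 66 or 94 (2.27 to 2.59, adjusted p 0.0574 to 0.0893). Of 12 Notch pathway genes, Hey1 (2.36) and Notch4 (2.31) were higher in the tumours. Notch4, a receptor of endothelial cells, stayed called, and Hey1 did not (adjusted p = 0.399). Among 15 angiogenic factors, Angpt1, the ligand of the vessel receptor Tie2, was at 3.88, 7.09, 6.92 and 7.22 in the lines and at the floor in all 4 tumours. A second Angpt1 probe set gave 0.12 in the same direction and was not called. Vegfc, a lymphatic growth factor, was higher in the lines by 2.30, and its relative Vegfd by 1.54, the latter without the set term only. Ang, angiogenin, was at 4.56, 3.64, 4.62 and 3.72 in the lines and 6.37, 6.66, 6.53 and 5.86 in the tumours, and it stood 1.98 above the primaries of the tumours' own set. All 15 primaries, of both sets, lay between 3.64 and 4.78. Mdk (2.16), Pdgfa (1.89) and Pdgfc (1.17) were higher in the tumours without the set term only. Vegfd lost its call without 182, 213, 29, 64, 66 or 94 (0.78 to 1.59), Pdgfc without 179, 213, 29 or 66 (0.91 to 1.14), and Mdk without 64 (1.69). Of 14 circadian genes, Npas2 (2.68), Hlf (2.60) and Clock (1.63) were higher in the tumours, and Hlf lost its call with the term (adjusted p = 0.292). Of 19 genes of hypoxia and glycolysis, Pfkfb3 (1.91) and Car9 (1.36) were higher in the tumours in both fits, and Aldoc (1.38) in the lines; its set-adjusted difference was 0.88, under 2-fold.

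**Figure D4:**
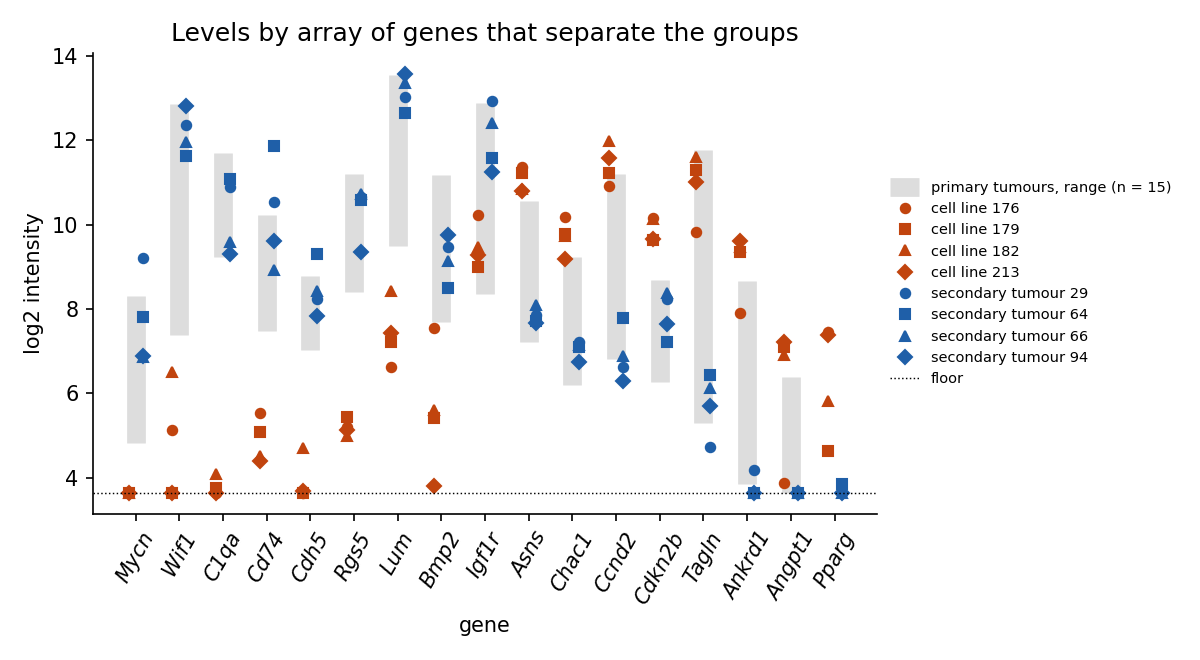
Log2 intensity (vertical axis) of 17 genes in each cell line (red) and each secondary tumour (blue), with the range over 15 primary tumours in grey and the floor dotted. Mycn lies on the floor in all 4 lines and at 6.87 to 9.20 in the tumours; Asns lies at 10.80 to 11.37 in the cell lines, against 7.66 to 8.09 in the tumours.

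Genes induced when cells run short of amino acids were mostly higher in the lines. Under such shortage, or other stress on protein synthesis, the kinase GCN2 or PERK raises the transcription factor ATF4, which binds C/EBP-ATF response elements. Of 17 measured genes of this response, 12 were higher in the lines and none in the tumours; 8 of the 12 stayed called with the control set as a term. The median difference was 1.74. Asns, asparagine synthetase, was at 11.37, 11.22, 10.85 and 10.80 in the lines and 7.87, 7.72, 8.09 and 7.66 in the tumours. It differed by 3.23 ± 0.589 (SE; limma adjusted p = 0.000318; set-adjusted difference 2.27, adjusted p = 0.0286). Chac1, which breaks down glutathione, was higher by 2.67, and Slc7a5, an importer of large neutral amino acids, by 2.54. Its partner chain Slc3a2 was higher by 1.21. The regulators Trib3 and Ddit3 (CHOP) were higher by 2.17 and 2.11. The serine pathway enzymes Psph (1.74) and Shmt2 (1.39) kept their calls; Psat1 (1.87), Phgdh (1.53), Mthfd2 (1.88) and the cysteine-forming Cth (2.97) lost theirs in the set-adjusted fit. Without tumour 94 Psat1 was not called (1.62, adjusted p = 0.0527). Line 176 did not stand apart here, with the exception of Cth, which it had at 5.18 against 7.62 to 8.19 in the other lines. Of 11 unfolded protein response genes, Herpud1 alone was higher in the lines (1.67).

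The promoter windows of these genes, from 250 bases before to 50 after the start in RefSeq on GRCm38.p6, were searched on both strands for the response element written TGATGNAA. It was present in 2.85% of the 10363 tested genes with such a window and in 3 of the 10 called amino acid genes that had one (30%). These were Asns, Chac1 and Trib3, and the windows of Asns and Chac1 are shown because the match is in front of the start. Capitals mark the match. In Asns (minus strand, chr6:7693160-7693459) it reads along the gene and begins 23 bases before the start. In Chac1 (plus strand, chr2:119350992-119351291) it reads on the opposite strand, and its leftmost base is 193 before the start.
Asns: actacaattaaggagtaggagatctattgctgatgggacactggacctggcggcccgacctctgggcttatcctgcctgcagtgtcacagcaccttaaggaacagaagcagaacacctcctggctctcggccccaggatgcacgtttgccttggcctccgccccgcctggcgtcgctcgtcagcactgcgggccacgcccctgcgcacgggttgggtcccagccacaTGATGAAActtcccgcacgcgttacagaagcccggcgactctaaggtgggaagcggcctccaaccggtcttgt
Chac1: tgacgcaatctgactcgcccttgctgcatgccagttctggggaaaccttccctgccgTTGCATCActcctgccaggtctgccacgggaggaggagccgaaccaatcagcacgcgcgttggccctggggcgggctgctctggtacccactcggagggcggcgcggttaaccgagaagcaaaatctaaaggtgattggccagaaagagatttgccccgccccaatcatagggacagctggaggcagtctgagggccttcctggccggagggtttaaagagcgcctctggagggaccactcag
A match of this kind describes the sequence and says nothing of binding in these samples. The list was chosen for this response, so its share beside that of all genes is not a test. Of all 15 measured genes of the list with a window, 4 held the element (26.7%), including Slc7a11, which was not called (0.21). Among all genes called higher in the lines the element was present in 3.89% of windows, and among those higher in the tumours in 2.91%.

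Genes of the actin cytoskeleton and of the serum response were higher in the lines for 8 of 19 members, with none higher in the tumours and a median of 0.99. These genes answer to SRF and its actin-sensing partners and to the YAP and TEAD factors of spreading cells. Ankrd1, a target of YAP, was at 7.91, 9.35, 9.47 and 9.61 in the lines and at 4.19, 3.64, 3.64 and 3.64 in the tumours. The difference was 5.31 ± 0.749 (SE; limma adjusted p = 2.37e-05), and the set-adjusted one 5.51. Tagln, transgelin, which binds actin, was at 9.83, 11.29, 11.60 and 11.01 in the lines and 4.74, 6.44, 6.13 and 5.71 in the tumours, a difference of 5.18. Osteoblast cultures had Tagln at 11.58 to 11.77. Amotl2 (1.35) and the receptor kinase Axl (1.28) were higher too and, with Ankrd1 and Tagln, kept their calls in the set-adjusted fit. Myl9 (2.15), Filip1l (1.19), Ajuba (1.11) and Vcl (1.04) lost theirs. These 4 were also lost on leaving out single arrays, Myl9 without 64 (1.80), Filip1l without 213 or 94 (1.06 each), Ajuba without 176 or 94 (0.97 and 0.83) and Vcl without 176 or 66 (0.97 and 0.91). Of 19 immediate early genes only Egr3 was called, higher in the tumours by 1.59 (set-adjusted p = 0.0554). Its second probe set ran the other way, 1.15 toward the lines, and the mean of both was not called (adjusted p = 0.785).

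Genes of embryonic muscle were higher in the lines for 11 of 17 members, 8 of them also in the set-adjusted fit, with a median of 2.85. They were not higher in all lines. Myod1, a master regulator of skeletal muscle, was at 9.40, 9.58 and 9.69 in lines 179, 182 and 213 and at the floor in line 176. The tumours had it at 3.64, 3.98, 4.18 and 4.26, the primary tumours at 3.64 to 5.36, and the osteoblast cultures at 3.64 to 4.13. Myog, which acts after Myod1 in muscle formation, was at 10.82, 10.31 and 9.13 in those lines and at 3.90 in line 176, against 3.83 to 4.49 in the tumours. Limma gave 4.06 ± 0.798 (SE; adjusted p = 0.000632) for Myod1 and 4.32 ± 0.804 (SE; adjusted p = 0.000387) for Myog. Downstream of these, the fusion protein Mymk was at 9.64, 8.68 and 7.37 in lines 179, 182 and 213, and the embryonic myosin Myh3 at 10.82, 9.78 and 6.07. Line 179 had the higher level and line 213 the lower for both. Actc1, the actin of the heart and of embryonic muscle, had the largest difference of all genes higher in the lines, 5.39 ± 0.913 (SE; adjusted p = 0.000158). It was at 12.15, 11.57 and 9.21 in those lines, at 4.44 in line 176 and at 3.66 to 4.17 in the tumours. The SEs here pool all 4 groups, whereas the SD among the 4 lines was 2.96 for Myod1 and 3.17 for Myog. With only the 8 compared arrays in the fit, Actc1 had a limma adjusted p of 0.0236 and Myh3 was not called. Of 15 genes of mature muscle fibres 4 were called, Mylpf (5.18), Tnnc2 (4.70), Myl1 (4.28) and Actn3 (3.21), of which Actn3 alone passed with the control set as a term. Actn3 and Tnnc2 lost their calls on leaving out any array but 176 (2.74 to 3.29 and 3.63 to 4.74), Myl1 without any of 179, 182, 213, 29, 66 or 94 (3.27 to 4.36), and Mylpf without 179 or 182 (4.17 and 4.65). Some primary tumours also held fibre genes, with list means up to 10.89, so the set-adjusted values for fibre genes rest on primaries that vary widely. No primary exceeded 5.51 in Myog or 5.36 in Myod1.

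The CArG box, the motif bound by SRF, was searched for in the same windows by its name's consensus, CC followed by 6 A or T bases and GG. It was present in 1.58% of all windows, in 3.07% of those of genes higher in the lines and in 1.45% of those higher in the tumours. Of the 16 actin and serum response genes with a window, 5 held it, Actg1, Cnn2, Filip1l, Myl9 and Vcl. The list was chosen for this response, so its share is not a test. Actg1 and Cnn2 were not called (0.05 and 0.07), and the others lost their calls in the set-adjusted fit. Ankrd1, Tagln, Amotl2 and Axl, which kept theirs, were not among the matches. Among Actc1, Tagln, Acta2, Cnn1 and Ankrd1, searched for display, only Actc1 had a match, and it is not in that list. Actc1 (minus strand, chr2:114052826-114053125) is shown as the gene with the largest difference toward the lines. Its match begins 47 bases before the start. Any match to this consensus is found on both strands, because the consensus reads the same on each.
Actc1: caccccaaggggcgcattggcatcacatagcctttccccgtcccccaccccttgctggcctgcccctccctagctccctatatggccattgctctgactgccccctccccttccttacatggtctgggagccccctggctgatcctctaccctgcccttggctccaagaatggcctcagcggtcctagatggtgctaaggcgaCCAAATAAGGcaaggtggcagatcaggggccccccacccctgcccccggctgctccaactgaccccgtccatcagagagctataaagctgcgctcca

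Further genes led the list of those higher in the lines. Tubb2b, a beta-tubulin, was higher by 4.10 and Hs6st2, which sulphates heparan sulphate, by 4.16. Bnc2, a zinc finger protein, was higher by 3.99, and Eya4, a transcriptional coactivator, by 3.88. Slc1a3, a glutamate transporter, was at 7.02, 9.51, 9.71 and 9.69 in the lines and 6.39, 4.58, 4.72 and 5.34 in the tumours. Ptx3, a soluble pattern receptor, was at 9.50, 9.96, 9.52 and 10.14 in the lines and 6.31, 6.02, 7.05 and 4.93 in the tumours, a difference of 3.70 ± 0.615 (SE; limma adjusted p = 0.000132). All 6 genes stayed called in the set-adjusted fit. A second Ptx3 probe set gave 0.72 in the same direction and was not called. The osteoblast cultures had Ptx3 at 11.39 to 11.45, Slc1a3 at 9.50 to 9.63 and Hs6st2 at 10.47 to 10.57, nearer to the lines than to the tumours. Hmox1, heme oxygenase 1, was the single call among 12 oxidative stress genes, at 9.97 to 10.29 in the cell lines, against 7.62 to 8.10 in the tumours. Of 16 sterol synthesis genes Fdft1 alone was higher in the lines (1.41), not with the term (adjusted p = 0.35), and the mean of its probe sets ran the other way (-0.33). On the side of the tumours, Prg3 (6.54) and Gm266 (5.23) were among the leading genes in both fits. The second kept probe set for Gm266 did not follow, with a difference of 0.02.

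Interferon-stimulated genes were low in line 176 and high in the other lines. Of 24 measured, 3 were higher in the lines, Bst2 (2.32), Ifit3 (1.78) and Ifi202b (1.72), and none passed with the control set as a term (adjusted p = 0.0991, 0.0585 and 0.105). Their calls were lost without 179, 182, 213 or 94 for Bst2 (1.80 to 2.26), 179, 213 or 94 for Ifit3 (1.34 to 1.60) and 94 for Ifi202b (1.33). Ifit1, an antiviral RNA-binding protein, was at 11.05, 10.17 and 10.80 in lines 179, 182 and 213 and at 3.92 in line 176, with the tumours between at 7.36, 6.92, 7.56 and 5.74. Ifi27l2a was at 10.41, 9.41 and 11.23 in those lines and at the floor in line 176, against 8.32 to 10.28 in the tumours. Line 176 was the lowest of the lines for each of these genes.

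Line 176 stood apart from the other lines in other ways. Igfbp3, which carries insulin-like growth factors, was at 3.67 there and 9.06 to 11.22 in the other lines, and Igfbp2 was at 6.49 against 9.79 to 10.10. Without line 176, 753 genes were called higher in the lines and 1124 higher in the tumours. Its position was 0.38 on genes higher in the lines and 0.18 on genes higher in the tumours. Its mean over the 15 macrophage markers was 5.29, against 5.11 to 5.21 in the others. Single markers did not all run 1 way. Cd14 (6.76, against 5.98 to 6.06) and Csf1r (7.45, against 6.17 to 6.60) were highest in line 176. C1qb was lowest in line 176, and C1qa and C1qc were at the floor there, as in line 213. The primary numbered 176 differed from line 176 in sex-linked genes, as given above.

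**Figure D5:**
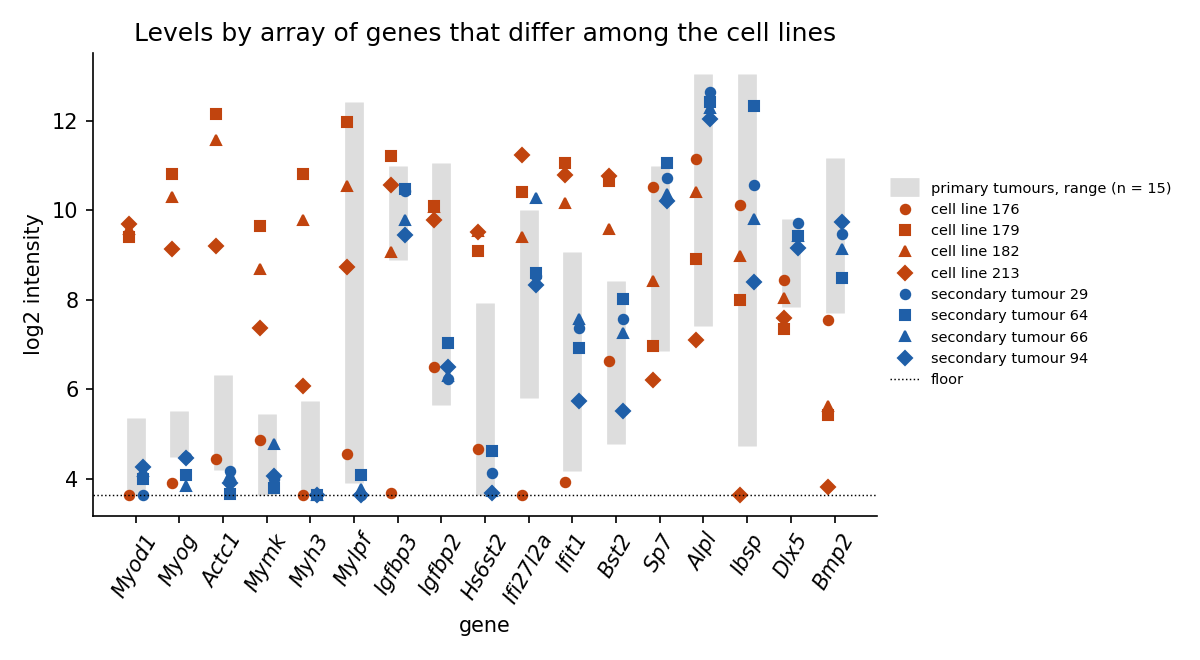
Log2 intensity (vertical axis) of 17 genes that differ among the cell lines, in each cell line (red) and each secondary tumour (blue), with the range over 15 primary tumours in grey and the floor dotted. Line 176 (red circles) is at the floor for Myod1 at 3.64, where the other lines are at 9.40 to 9.69, and has the highest Sp7 of the lines at 10.52.

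Tumour 66, which the labels derive from a cell line, did not sit nearer to the lines than the transplants did. Its correlations with the 4 lines were 0.807 to 0.850, and those of the other tumours 0.803 to 0.850. On genes called without it, 7.85% lay nearer to the lines, against 10.1% to 13.4% for the transplants. Tumour 66 shares the low control set with the transplants, all lines are in the high set, and these measures were not set-adjusted. The part of the control set in them was not tested. Without tumour 66, 544 genes were called higher in the lines and 1036 in the tumours. The genes in which it lay farthest toward the lines were Il17d, Dio3os, Aebp1, Tafa5 and Iqcb1 among those higher in the lines and Fbxw4, Mageh1, Ccdc173, Slco3a1 and Ltbp4 among those higher in the other tumours. These were picked by that property and are a description. Slco3a1, an organic anion transporter, was at 6.66 in tumour 66, 10.21, 8.70 and 8.81 in the transplants and 6.46 to 7.50 in the lines. Aebp1 was at 10.75 there, 9.70 to 10.08 in the transplants and 10.70 to 11.07 in the lines.

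Some genes ranged widely among the secondary tumours. Mtus2, a microtubule-associated protein, was at 14.41 in tumour 94 and at 6.30 to 6.43 in the other tumours, and the primary of the same number had 7.42. Nts, neurotensin, was at 11.34, 5.12, 10.87 and 10.09 in the tumours and 3.64 to 6.55 in the lines, a called difference of 4.41 that the set-adjusted fit did not keep (adjusted p = 0.550). Leaving out any of 176, 179, 182, 29, 66 or 94 also ended that call (3.75 to 4.61, adjusted p 0.0690 to 0.125). Cartpt, a neuropeptide precursor, was at 3.80, 4.32, 6.18 and 9.98 in the tumours. Rps4l was at 9.79, 3.68, 3.64 and 8.65 in the tumours, close to the 8.83, 3.64, 3.64 and 7.62 of their same-numbered primaries. In the lines it was at 10.36, 5.19 and 7.16 where the primaries of the same number had 3.64, 8.50 and 9.88.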

How the data were processed

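The authors deposited 1 value table of array intensities on a linear scale for 45101 probe sets and 26 arrays. How probes were summarised, scaled and background-corrected is not given in the sources used here; per the labels, total RNA was copied with an oligo-dT primer and labelled with biotin. Probe sets were named through a platform table and RefSeq (34945 with 1 symbol, 932 with several, which were not used, and 9224 unnamed). Values were floored at the 20th percentile, put on the log2 scale and not normalized again. Probe sets above the median of all values (52.6) on at least 3 arrays were kept, and each gene was represented by the brightest of them on average, leaving 12886 genes. One limma fit (limma 3.58.1, R 4.3.3) held 4 group means over 26 arrays. Called means Benjamini-Hochberg adjusted p below 0.05 over all genes and at least 2-fold. The number of arrays, 4 a group, limits the precision. The procedure was tested on simulated data of independent normal values, without a control set difference. Changes were put only into genes of below-median spread, so noisier genes were not covered. The named genes are 14 fixed ones (10 measured), the 12 largest called non-overlapping differences each way, up to 4 called members of each of 45 lists, the genes placing tumour 66 nearest the lines, and the 5 widest ranges within each group; further list members named were picked after their values were seen. The samples and lists were chosen with earlier results of these data known. Alternatives changed the scaling, floor, filter, probe set rule, arrays, weights, blocks and control set. RefSeq promoter windows came from GRCm38.p6.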

Additional observations from a re-analysis of the deposited data

Results flagged for a closer look

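On 36 of the 342 sets of 4 values examined (genes named above with all 4 values above the floor, and array quality measures), the highest or lowest array lay far from the other 3 by Dixon's criterion. Chance gives such a gap in about 1 in 20 sets, a rate that does not hold for genes named for a wide range or after their values were seen (Mtus2, Xist, Ifi27l2a and Smad6 among them), and 15 of the 36 concern line 176.

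Line 176 was the low array of the lines for Hs6st2 (4.67), Tubb2b (7.56), Eya4 (6.17), Slc1a3 (7.02), Ankrd1 (7.91), Actn3 (4.07), Mfap5 (7.40), Igfbp2 (6.49), Angpt1 (3.88), Ifit1 (3.92) and Mcam (5.11). It was the high array for Adamts4 (8.52), Lgr6 (6.79), Nkd2 (9.90) and Cd14 (6.76).

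Among the other lines, 179 was low in Myc (7.66) and high in Gdf10 (6.89), and 213 was low in Ccne1 (7.31) and high in Nid1 (11.11), Ccdc173 (4.85) and the bioB to bioC ratio (0.955).

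Tumour 94 was high in Mtus2 (14.41) and Ccne1 (9.70) and low in Rgs5 (9.36), Ajuba (5.94), Fzd2 (8.26), Pdgfa (10.38) and Actg1 (13.21). Tumour 66 was high in Smad6 (13.80) and Ifi27l2a (10.28) and low in Col1a1 (13.71). Tumour 64 was high in Xist (12.98), Lmod1 (5.45) and Myl1 (4.58) and low in Eif2s3y (5.04) and Mthfd2 (7.65).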

How the results depend on the processing

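Of the 157 called genes named above, sex-linked ones left out, 155 kept their direction under all 24 alternatives and 116 kept their call under all but the control set term and the replicate blocks; 64 lost it with the control set as a term. The fixed replicate block (residual df 5) ended 74 of these calls, and 21 of them had stayed called with the control set: Acan, Actc1, Actn3, Angpt1, Axl, Clock, Cspg4, Fst, Gadd45a, H2-Eb1, Hs6st2, Mcam, Mfap5, Myh3, Mymk, Myod1, Myog, Npas2, Plvap, Shmt2 and Slc4a1 (limma adjusted p 0.0582 to 0.426 with the block). Quantile, 75th percentile or median scaling ended 10 calls: Axin2, Bmp6, Ccne1, Cd14, Col12a1, Fzd1, Nts, Nusap1, Pdgfc and Sesn1. With only the 8 compared arrays in the fit, Bst2, Fas, Ifit3, Myh3, Sfrp1, Smad6 and Vegfd lost their calls. Counts of genes higher in the lines and in the tumours moved by over 1.5 times under 5 alternatives. Higher in the lines were 1317 genes after median scaling, 1275 of 27307 when every probe set was kept, 355 with the control set as a term, 395 with the replicate block fixed and 1637 with no fold minimum; higher in the tumours were 652, 3531, 456, 503 and 2272. Leaving out 1 array gave 536 to 753 and 961 to 1124. The reversed genes were uncalled in either direction, apart from Fdft1 (mean of probe sets, -0.33) and Col12a1 (fixed block, 0.28). Line minus secondary turned for Col1a1 with the mean of probe sets (0.30), for Rb1 with the control set (0.11) and for Ifi27l2a with the control set (0.16), a floor at the 40th percentile (0.09) and array weights (0.55). With the replicate block fixed it turned for Rb1 (0.51), Fbxw4 (0.17), Slco3a1 (0.09), Rps4l (-0.27) and Ifi27l2a (0.10), and with the random block for Ifi27l2a (0.03). Leaving out 1 array turned Ifi27l2a (-1.11 to 1.42), Igfbp3 (-2.26 to 0.25), Rps4l (-0.18 to 1.96) and Cnn2 (-0.09 to 0.30). The cause of these changes was not tested. Lines and secondary tumours share no number, so the block runs through primaries of the same number. Same-numbered line and primary deviated together little (r 0.037 to 0.0569), secondary and primary more (0.281 to 0.683), each secondary tumour best with its own number. The lines' pairs all lay below 0.1, whereas those of the secondary tumours did not. The main and set-adjusted fits nevertheless treat same-numbered arrays as independent. The random block called 553 and 912 genes. The arrays carry no signal over background estimate, and values at the floor limit what is seen of low genes. For several called genes a second probe set ran the same way but was not called, among them Ccr1 (0.08), Dcn (0.53) and Ddit3 (0.54).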
